A study of Mus musculus with 32 samples.

Results

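The comparison set 2-cell mouse embryos labelled m-z- for Dppa4, which should have Dppa4 neither from the oocyte nor from their own genome, against embryos labelled m-z+, which should lack only the maternal supply. Its members were the polyA RNA libraries of those 2 genotypes, chosen by their labels: 3 m-z+ and 3 m-z- embryos, 6 of the 32 libraries of the series. The series measured total RNA or polyA RNA of 1-cell and 2-cell embryos, either carrying mutations of Dppa2 or Dppa4 or serving as WT or m+z+ controls. The WT polyA libraries, 2 from 1-cell embryos 12 h and 2 from 2-cell embryos 28 h after fertilization, are given here for reference. So is the Dppa2 arm, 3 m-z+ and 3 m-z- polyA libraries for Dppa2, from 2-cell embryos of a mixed B6/DBA background 28 h after fertilization. Each of the 6 libraries came from a single late 2-cell embryo of B6 strain, 28 h after fertilization, as non-stranded polyA RNA. The descriptions call the m-z+ embryos heterozygous and the m-z- embryos maternal-zygotic knockouts, so both groups share the loss of maternal Dppa4, and the comparison asks what the loss of the zygotic allele adds. Which part of the gene the allele removes, which cells any deleting enzyme acted in, and which embryos shared a mother are points not given in the sources used here.

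Dppa2 and Dppa4 encode small nuclear proteins with a SAP domain, a DNA-binding fold, that bind chromatin as a pair. They are neighbouring genes active in early embryos, in the germ line and in pluripotent stem cells. In mouse embryonic stem cells they are known as activators of Dux, and through it of the transcripts that mark the 2-cell stage, and as factors that keep a set of CpG-rich promoters free of DNA methylation.

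Values are FPKM, reads per kilobase of gene scaled to the reads mapped, as the authors deposited them. Differences are m-z- minus m-z+ on the log2(FPKM + 1) scale, which understates the change of low genes, with limma's standard error (SE) and Benjamini-Hochberg adjusted p over 18506 tested genes, and a gene was called at an adjusted p under 0.05. In each list of 3 values the embryos stand in the order of replicates 1, 2 and 3. Summed FPKM ranged from 576436 to 636511 over the 6 libraries, while read depth is unknown. Genes at 1 FPKM or more numbered 12430, 12776 and 13161 in m-z+ and 13731, 13609 and 13246 in m-z- embryos. Every m-z- library thus listed more genes than any m-z+ library, and what this adds to the differences below was not tested. Pearson's r of log2 values across genes was 0.900 to 0.912 among m-z+ embryos, 0.865 to 0.906 among m-z- embryos and 0.848 to 0.919 between the groups, so embryos of the 2 genotypes were about as alike as embryos of 1 genotype. The m-z- replicate 1 had the lowest values of r (0.848 to 0.884).

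Loss of the zygotic allele removed Dppa4 RNA and, at this precision, left few other calls. Dppa4 and 2 processed pseudogenes, Gm14058 and Gm6773, were called, each lower in m-z- embryos. These 3 genes were 0.0162% of the 18506 tested, and 0 genes (0%) were called higher. At so low a share, 0 calls in any of the short gene lists below says little about that list. At an unadjusted p under 0.05, limma marked 1296 genes (7%). The median SE of a difference was 0.50, so for the median gene a difference of 1 log2 unit was about 2 SE. Larger differences also did not pass, such as that of Rgsl1 (log2 difference 2.48, SE 0.45, limma adjusted p = 0.134). That no further gene passed does not show that the genotypes expressed other genes alike.

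**Figure D1:**
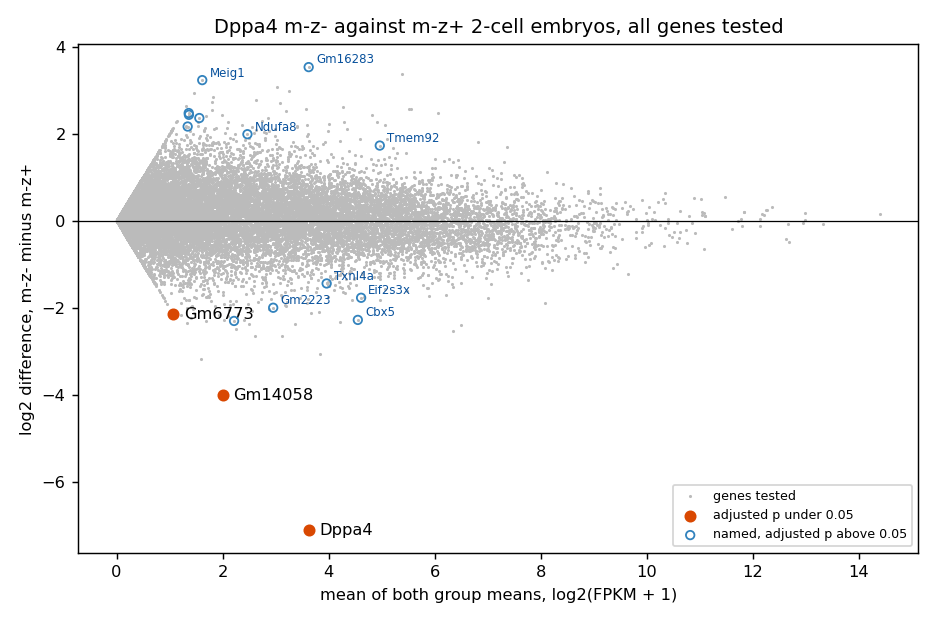
Log2 difference (m-z- minus m-z+) against the mean log2(FPKM + 1) of both groups, 1 dot per tested gene. Filled circles are the 3 genes with an adjusted p under 0.05, all below 0, and open circles are the named genes that did not pass.

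Dppa4 (ENSMUSG00000058550, mm10, chromosome 16, 48283733 to 48294237, forward strand, protein coding) is the mutated gene and checks the zygotic part of the labels. The m-z+ embryos held 155, 152 and 125 FPKM of it, the m-z- embryos 0, 0 and 0.149 FPKM. Every m-z+ embryo was high, every m-z- embryo was at or near 0, and the groups did not overlap. All 6 libraries thus fitted the zygotic part of their labels. The maternal loss that both groups should share cannot be read from these values, because WT 2-cell embryos are high as well. The group means were 144 ± 16.7 (SD, n = 3) and 0.0497 ± 0.0861 FPKM (SD, n = 3), and the log2 difference was -7.11 (SE 0.30, limma adjusted p = 3e-10). A two-sided exact permutation test of the 6 FPKM values gave p = 0.1, the smallest that the 20 assignments of 3 against 3 allow. WT 2-cell embryos measured 201 and 184 FPKM, both above the 3 m-z+ embryos. WT 1-cell embryos held 4.13 and 5.68 FPKM, far below the 2-cell level. Each library is a whole embryo, so fewer cells with an RNA and less of it per cell cannot be told apart.

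Gm14058 (ENSMUSG00000079966, mm10, chromosome 2, 122214620 to 122215354, reverse strand) is annotated as a processed pseudogene, a retrotransposed copy of a spliced mRNA. It is a copy of Dppa4: all of its 735 bases aligned to the transcript Dppa4-201 with 8 mismatches and no gap (98.9% identity), and the alignment covers the coding sequence. The first 180 coding bases are shown because 5 of the 8 mismatches lie in them, and because they show how little sequence separates the gene from its copy. Capitals mark the mismatched bases. Both are written 5′ to 3′ from the GENCODE M21 transcripts, Dppa4 from coding base 1 to 180 and Gm14058 from chr2:122215175-122215354 on the reverse strand.
Dppa4-201: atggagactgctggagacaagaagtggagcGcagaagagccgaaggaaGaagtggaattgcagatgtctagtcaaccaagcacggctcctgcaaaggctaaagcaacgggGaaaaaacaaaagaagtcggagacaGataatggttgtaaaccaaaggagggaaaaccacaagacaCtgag
Gm14058: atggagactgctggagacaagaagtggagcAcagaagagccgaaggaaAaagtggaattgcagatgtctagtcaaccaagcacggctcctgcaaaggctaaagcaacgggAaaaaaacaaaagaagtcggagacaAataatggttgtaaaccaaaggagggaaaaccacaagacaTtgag
Counted from coding base 1, with the Dppa4 base first, the substitutions in this stretch are G31A, G49A, G111A, G136A and C176T, and the others are A231G, C321T and G639A.

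Gm14058 was listed at 17, 15.5 and 12.9 FPKM in m-z+ embryos and at 0 in all m-z- embryos. The 2 groups did not overlap, and the order of the m-z+ embryos was that of Dppa4. The log2 difference was -4.00 (SE 0.38, limma adjusted p = 5.92e-05). In the 11 2-cell polyA libraries that hold Dppa4 RNA, WT and Dppa2-arm libraries included, Gm14058 stood at 9.22% to 12.7% of the Dppa4 FPKM. Of the 686 windows of 50 bases in Gm14058, 372 (54.2%) occur unchanged in Dppa4-201, and how the counting shared reads between the copies is not given in the sources used here, so the value of Gm14058 is uncertain and its call cannot be separated from that of Dppa4.

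A further processed copy, Gm5501, aligned to Dppa4-201 over 533 bases at 96.8% identity and shared 14.3% of its 50-base windows with it. It was listed at 2.12, 1.44 and 0.849 FPKM in m-z+ embryos and at 0, 0.00618 and 0.00342 FPKM in m-z- embryos. Its groups did not overlap, and the difference did not pass (log2 difference -1.27, SE 0.40, limma adjusted p = 0.59). The more diverged copies Gm18833, Gm6754 and Gm14366, at 78.9% to 85.0% identity and with no shared 50-base window, were listed at 0 in all 6 libraries.

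**Figure D2:**
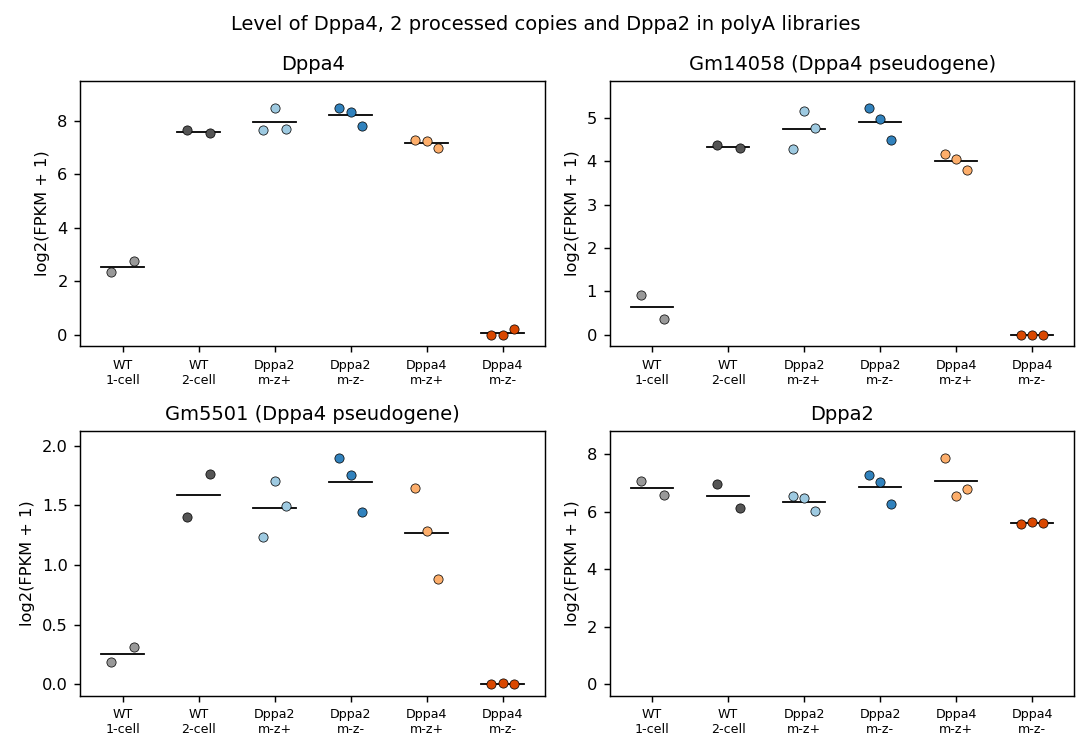
Log2(FPKM + 1) of Dppa4, its processed copies Gm14058 and Gm5501, and Dppa2 in each of the 16 polyA libraries, with dots for single embryos and lines for group means, each panel on its own axis. At the 2-cell stage Dppa4 and both copies are at or near 0 in the 3 Dppa4 m-z- embryos only, and Dppa2 stays above 5 log2 units in every library, those labelled Dppa2 m-z- included.

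Gm6773 (ENSMUSG00000098079, mm10, chromosome 14, 18099183 to 18100060, reverse strand) was the remaining call. It is a processed pseudogene related to Gapdh, a glycolytic enzyme gene, at 86.1% identity and with 0 shared windows of 50 bases. It was listed at 2.67, 3.88 and 3.85 FPKM in m-z+ embryos and at 0 in all m-z- embryos, and its log2 difference was -2.15 (SE 0.32, limma adjusted p = 0.0237). The level was low and the groups did not overlap. Both WT 2-cell embryos and all Dppa2-arm embryos were listed at 0 like the m-z- embryos. At the 2-cell stage the Dppa4 m-z+ embryos were thus the exception. The call was lost without any 1 of 5 of the 6 libraries (adjusted p = 0.0636 to 0.0987), all but m-z+ replicate 1. It was also lost when only the 6 compared libraries were fitted (limma adjusted p = 0.87). Gapdh measured 3.31, 5.09 and 4.99 FPKM in m-z+ and 2.43, 5.77 and 5.12 FPKM in m-z- embryos, which overlapped.

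Dppa2 (ENSMUSG00000072419, chromosome 16, 48303908 to 48319723, forward strand), the partner gene next to Dppa4, measured 232, 91.2 and 111 FPKM in the m-z+ group and 46.2, 48.4 and 47.7 FPKM in the m-z- group. The m-z- embryos lay close together and below every m-z+ embryo, of which replicate 1 was far above the other two. The log2 difference was -1.47 (SE 0.37, 95% interval -2.24 to -0.69), and it did not pass (limma adjusted p = 0.481). WT 2-cell embryos measured 123 and 69.6 FPKM. Without m-z+ replicate 1 the difference was -1.07 (limma adjusted p = 0.871). Of the 7 tested neighbours of the locus, Dppa2 included, 0 were called. A negative difference was found in 4, beside 7919 of all 18506 genes tested. Pvrl3, a nectin cell adhesion gene, was at 20.8, 29.7 and 23.7 FPKM in m-z+ and 63.9, 31.1 and 33.0 FPKM in m-z- embryos, which did not overlap (log2 difference 0.70, SE 0.42, limma adjusted p = 0.79). Morc1, a germ-line chromatin gene, was at 1.83, 5.89 and 8.77 FPKM against 1.41, 3.62 and 1.97 FPKM, which overlapped.

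The best known 2-cell transcripts were present in both genotypes. Zscan4d, of a family that marks the 2-cell state, was at 121, 118 and 118 FPKM in m-z+ and 95.3, 187 and 165 FPKM in m-z- embryos (log2 difference 0.26, 95% interval -0.49 to 1.01). Zfp352 was at 123, 175 and 112 FPKM against 175, 214 and 194 FPKM (0.53, interval -0.17 to 1.23). Tdpoz1 was at 39.6, 54.0 and 51.6 FPKM against 39.4, 51.0 and 52.5 FPKM (-0.02, interval -0.64 to 0.60). In each of these 3 genes the groups overlapped, and the intervals leave room for differences of more than 0.5 log2 units. Duxf3, the Dux gene that the 2-cell genes depend on in stem cells, was listed at 0 to 0.107 FPKM in m-z+ and 0.00495 to 0.407 FPKM in m-z- embryos and was too low to test.

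Of 40 tested genes in a list of 2-cell transcripts, 0 were called, and the median log2 difference was 0.22 beside 0.08 for all genes tested. The groups did not overlap in 10 members with higher m-z- values (25%, beside 6.01% of all genes) and in 1 with lower values (2.5%, beside 3.82%). AF067061 was at 114, 70.0 and 93.1 FPKM in m-z+ and 421, 348 and 176 FPKM in m-z- embryos, with WT 2-cell embryos at 46.9 and 118 FPKM. Tmem92, a gene for a membrane protein, was at 17, 11.1 and 22.2 FPKM against 81.8, 56.8 and 37.3 FPKM, with WT at 31.6 and 16.6 FPKM. Every m-z- embryo was above every m-z+ embryo in both genes, yet neither passed (log2 difference 1.70 and 1.73, SE 0.41 and 0.41, limma adjusted p = 0.437 for each). The other 8 were Tcstv1, Tcstv3, Usp17la, B020031M17Rik, BB287469, Gm8300, Gm2022 and Alyref2, named here after their values were seen, with log2 differences of 0.71 to 1.22. The member with lower values was Tdpoz2, at 11.6, 24.4 and 10.7 FPKM against 2.33, 5.66 and 9.57 FPKM. These families hold near-identical copies, so reads may be shared among members and their counts are not of independent genes. The list median was 0.61 without m-z- replicate 1 and 0.05 without m-z+ replicate 3.

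The Obox genes, a family of oocyte and 2-cell homeobox transcription factors, were abundant in both genotypes. Obox6 was at 866, 532 and 547 FPKM in m-z+ and 158, 446 and 621 FPKM in m-z- embryos. Obox3 was at 964, 510 and 393 FPKM against 131, 476 and 666 FPKM. In both, m-z- replicate 1 was the lowest of the 6 embryos and the groups overlapped. Obox8 was at 576, 317 and 330 FPKM against 74.5, 295 and 278 FPKM, where the groups did not overlap (log2 difference -1.09, SE 0.52, limma adjusted p = 0.711). Obox1 went the other way without overlap, at 321, 246 and 297 FPKM against 388, 369 and 347 FPKM (0.36, SE 0.314, limma adjusted p = 0.858). The groups thus did not overlap in 1 member with lower values (14.3%, beside 3.82% of all genes) and in 1 with higher ones (14.3%, beside 6.01%). Of the 7 tested members 0 were called, and 5 had a negative difference, beside 7919 of all 18506 genes tested. The median was -0.22, or -0.46 without m-z- replicate 3 and -0.10 without m-z- replicate 1.

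Genes whose polyA FPKM rose (here called activated) or fell (cleared) from WT 1-cell to WT 2-cell embryos were followed as 2 wide lists. They were defined from all 16 polyA libraries by the WT contrast at an adjusted p under 0.05. Total RNA was not used to define them. Of 3225 activated genes 2 were called, Dppa4 and Gm14058, both lower, beside 3 of all 18506 genes tested (0.0162%). The median log2 difference was -0.16, and 292 (9.05%, beside 3.82% of all genes) had lower, non-overlapping m-z- values while 163 (5.05%, beside 6.01%) had higher ones. Of 1559 cleared genes 1 was called, Gm6773, lower, beside the same 0.0162% of all genes. There the median was 0.22, and 164 (10.5%, beside 6.01%) had higher, non-overlapping values while 34 (2.18%, beside 3.82%) had lower ones.

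Embryo by embryo, the median level of the activated genes was 4.24, 4.08 and 4.16 log2 units in m-z+ and 3.93, 4.17 and 4.07 in m-z- embryos, which overlapped. That of the cleared genes was 2.94, 3.18 and 3.20 in m-z+ and 3.51, 3.33 and 3.29 in m-z- embryos. The cleared genes were therefore higher in each m-z- embryo than in any m-z+ embryo. The WT 2-cell embryos had 4.57 and 4.56 for activated and 2.58 and 2.60 for cleared genes, values that the choice of the lists on these WT libraries sets in part. Leaving out single libraries moved the medians between -0.18 and -0.07 (without m-z- replicate 1) for activated and between 0.16 and 0.26 for cleared genes. Whether the embryos had reached the same point of the 2-cell stage was not tested.

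**Figure D3:**
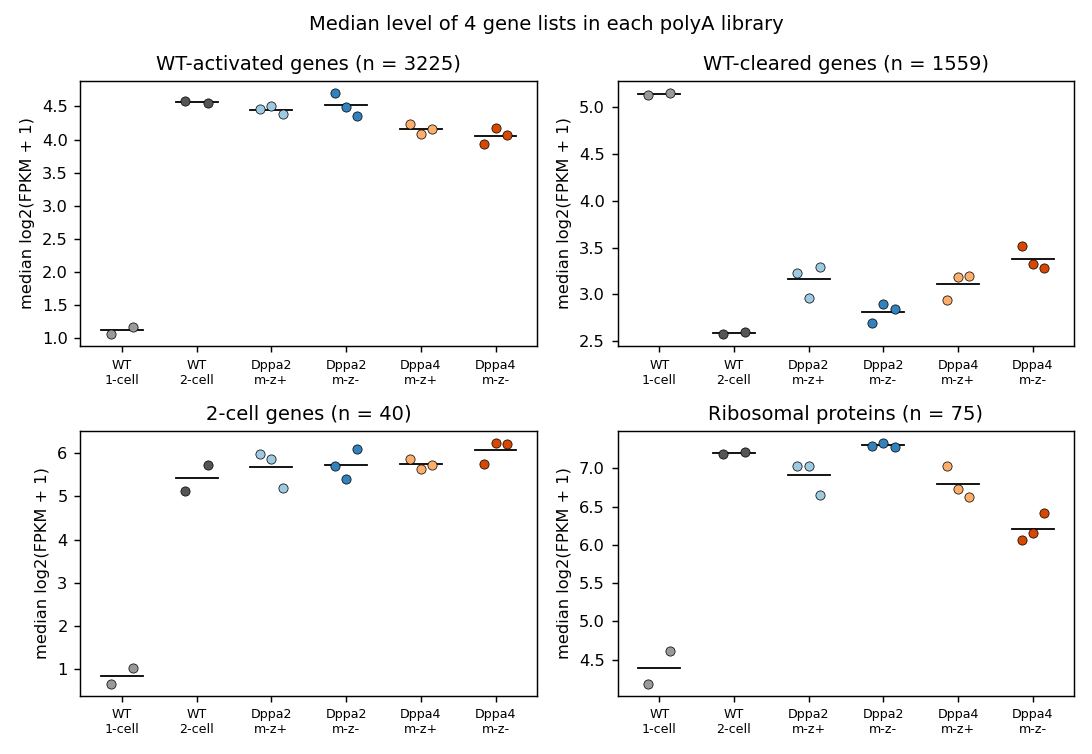
Median log2(FPKM + 1) of 4 gene lists in each polyA library, with dots for libraries and lines for group means, each panel on its own axis that does not start at 0. Cleared genes stand at 3.29 to 3.51 in Dppa4 m-z- embryos and 2.94 to 3.20 in m-z+ embryos, and ribosomal protein genes at 6.06 to 6.42 and 6.62 to 7.03.

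Genes for making proteins made up several of the lists with the lowest medians. Of 75 ribosomal protein genes 0 were called, and the median was -0.42. A negative difference was found in 67 of them, beside 7919 of all 18506 genes tested. The groups did not overlap in 13 members with lower m-z- values (17.3%, beside 3.82% of all genes) and in 2 with higher ones (2.67%, beside 6.01%). The per-embryo median was 7.03, 6.73 and 6.62 log2 units in m-z+ and 6.06, 6.16 and 6.42 in m-z- embryos, with every m-z- embryo below every m-z+ embryo. WT 2-cell embryos stood above both, at 7.19 and 7.22, and WT 1-cell embryos far below.

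The largest difference within this list was that of Rpl29, a large-subunit protein gene, at 25.8, 17.2 and 22.9 FPKM in m-z+ and 2.63, 2.27 and 22.1 FPKM in m-z- embryos. Its m-z- replicate 3 lay among the m-z+ embryos (log2 difference -1.80, SE 0.59, limma adjusted p = 0.605). Rps4x, an X-linked small-subunit gene, was at 72.0, 111 and 143 FPKM against 64.3, 50 and 39.1 FPKM, without overlap. Rps20 had the opposite sign, at 9.46, 15.2 and 13.2 FPKM against 48.6, 33.6 and 31.3 FPKM, also without overlap (1.51, SE 0.49, limma adjusted p = 0.605). Many ribosomal protein genes have processed copies in the genome, which can share reads with them.

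Of 66 ribosome biogenesis genes 50 had a negative difference (median -0.31), and of 44 translation factors 34 did (median -0.33), with 0 called in each list. Over all genes tested, 7919 of 18506 had a negative difference. Without m-z+ replicate 1 the ribosome biogenesis median was -0.16. Ddx47, a nucleolar helicase gene, was at 46.1, 42.3 and 48.8 FPKM in m-z+ and 11.4, 19.8 and 32.1 FPKM in m-z- embryos, which did not overlap (log2 difference -1.19, SE 0.34, limma adjusted p = 0.59). Eif3g, a gene of an initiation factor subunit, was at 153, 91.2 and 138 FPKM against 53.7, 26.5 and 89.2 FPKM, without overlap. Of 38 proteasome genes 0 were called, and the median was -0.22, or -0.42 without m-z+ replicate 3. The groups did not overlap in 9 members with lower values (23.7%, beside 3.82% of all genes) and in 1 with higher ones (2.63%, beside 6.01%). Psmd13, a regulatory subunit gene, was among the lower ones, at 11.3, 8.33 and 17.6 FPKM against 2.90, 4.74 and 3.61 FPKM. The higher one was Psma5, a core subunit gene named after its values were seen, at 42.9, 28.3 and 12.5 FPKM against 45.9, 77.0 and 56.9 FPKM.

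The Dppa2-arm medians for ribosomal protein, ribosome biogenesis, translation factor and proteasome genes were 0.39, 0.27, 0.21 and 0.21, of opposite sign. The medians of the difference between the arms were -0.75, -0.56, -0.51 and -0.67, beside 0.19 for all genes, with 0 members called in it. The arms differ in strain background as well as in the mutated gene, and these cannot be told apart. The Dppa2 m-z- label was also not visible in Dppa2 RNA, as given below.

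Of 3 stress gene lists, those of the integrated stress response and the p53 response had medians above the 0.08 of all genes, and that of heat shock genes had one below it, at -0.28 (-0.05 without m-z- replicate 1). Of 19 genes of the integrated stress response 17 had a positive difference (median 0.44) and of 23 p53 response genes 16 did (median 0.30), with 0 called. Over all genes tested, 10283 of 18506 had a positive difference. The first median was 0.26 without m-z+ replicate 1 and the second 0.18 without m-z+ replicate 2. Ppp1r15a, which restores translation after stress, was at 25.8, 22.1 and 24.3 FPKM in m-z+ and 35.4, 42.6 and 60.2 FPKM in m-z- embryos, without overlap (log2 difference 0.88, SE 0.39, limma adjusted p = 0.7), beside 51.6 and 52.5 FPKM in WT 2-cell embryos. Ddit3, a stress transcription factor gene, was at 24.9, 13.6 and 14.9 FPKM against 22.4, 89.5 and 41.6 FPKM, which overlapped. In the Dppa2 arm the difference of Ppp1r15a was also positive (1.65, SE 0.39, limma adjusted p = 0.267). That of Ddit3 was negative there (-0.93, SE 0.61, limma adjusted p = 0.748), as was the median of the integrated stress response list (-0.20).

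Oocyte transcripts were still present at the 2-cell stage. Of 59 tested maternal genes 0 were called, 35 had a positive and 24 a negative difference, beside 10283 and 7919 of all 18506 genes. The median was 0.10, beside 0.08 for all genes, or 0.24 without m-z+ replicate 2. The groups did not overlap in 5 with higher m-z- values (8.47%, beside 6.01% of all genes), which were Zp1, Zar1, Nlrp2, Padi6 and E330034G19Rik, all but Zp1 named after their values were seen. Zp1, for a protein of the egg coat, was at 4.81, 6.4 and 9.31 FPKM in m-z+ and 12.7, 13.7 and 18.2 FPKM in m-z- embryos (log2 difference 1.04, SE 0.48, limma adjusted p = 0.708). The oocyte markers Zar1l, Zp3, Gdf9 and Ooep had log2 differences of -0.555, -0.021, 0.581 and 1.046, and the groups overlapped in each. Dppa3, whose protein guards the maternal genome from demethylation, was at 9960, 4197 and 6907 FPKM against 5757, 6170 and 6967 FPKM, which overlapped.

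Lists tied to the known roles of Dppa2 and Dppa4 in stem cells held 0 called genes, beside 0.0162% of all genes. At that share, 0 calls in lists of this size does not show that their genes were unchanged. The medians were 0.18 over 13 tested target genes, -0.02 over 35 germ-line genes and 0.08 over 41 genes of DNA methylation and chromatin. Each of the 3 medians changed sign when certain single libraries were left out. That of the targets became -0.15 on leaving out m-z- replicate 3, -0.06 on leaving out m-z- replicate 2 and -0.05 on leaving out m-z+ replicate 3. The germ-line median became 0.13 when either m-z- replicate 3 or m-z+ replicate 2 was left out, and that of DNA methylation and chromatin genes was -0.19 without m-z- replicate 1. Syce1, a meiotic synapsis gene, was at 3.33, 6.46 and 0 FPKM in m-z+ and 18.9, 8.69 and 1.47 FPKM in m-z- embryos. Mael, a germ-line gene of transposon silencing, was at 105, 118 and 80.4 FPKM against 86.1, 62.3 and 76.3 FPKM. The groups overlapped in both. Nkx2-5, a heart transcription factor gene, was listed at 0.684 FPKM or less in every embryo and was not tested. Lists of preimplantation factors, imprinted, cell cycle, spliceosome and heat shock genes also held 0 called members, and the first 4 had medians of 0.29, -0.13, -0.03 and -0.15. The preimplantation median was -0.07 without m-z+ replicate 2 and -0.02 without m-z- replicate 1, and the imprinted median was 0.04 without m-z+ replicate 1.

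**Figure D4:**
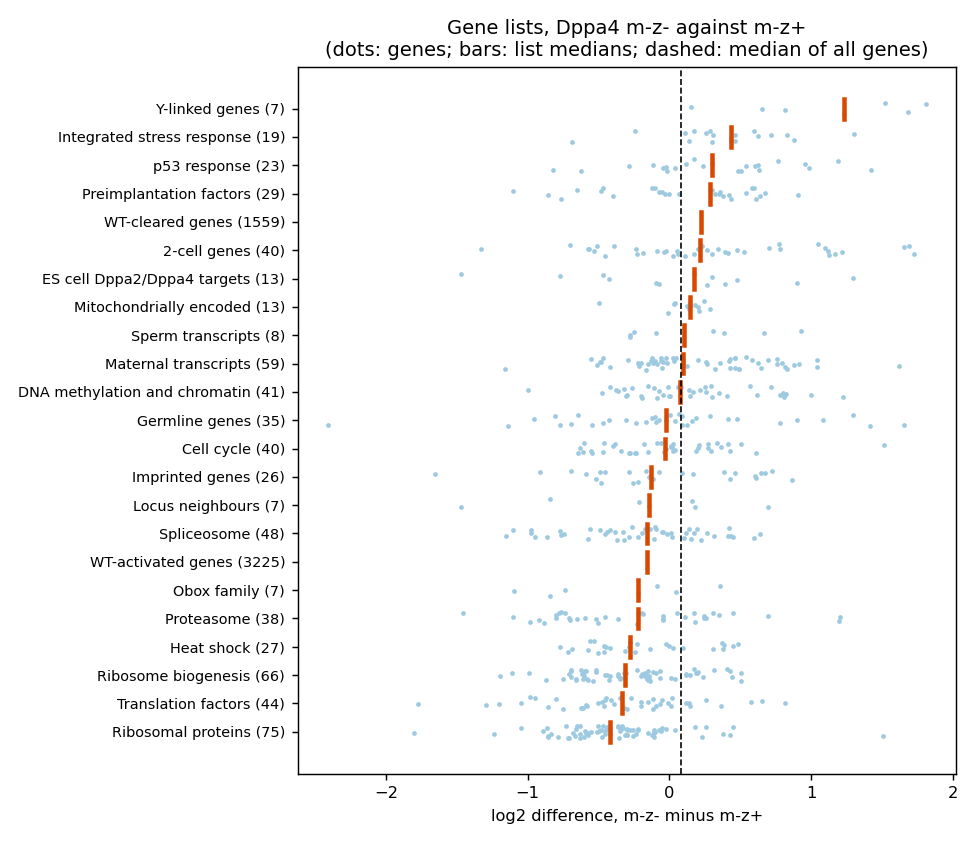
Log2 differences (m-z- minus m-z+) of the tested genes of each list (dots), with the list median (bar) and the median of all genes tested, 0.08 (dashed line). The 2 WT-defined lists are shown by their medians only, and numbers in brackets are tested genes. The ribosomal protein list has the lowest median, -0.42, and the Y-linked list the highest, 1.23.

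The embryos also differed in sex. The summed level of the Y-linked genes Ddx3y, Eif2s3y and Uty was 87.2, 0.0224 and 0.0157 FPKM in m-z+ and 0.0182, 60.9 and 73.2 FPKM in m-z- embryos, so 1 m-z+ and 2 m-z- embryos held Y-linked RNA. The 825 X-linked genes had a median log2 difference of -0.12 beside 0.09 for 17444 autosomal genes, and 6.42% of them had lower values without overlap, beside 3.69%. Eif2s3x, an X-linked translation initiation factor gene, was at 40, 46.9 and 46 FPKM in m-z+ and 12.7, 11.5 and 12.5 FPKM in m-z- embryos, with both groups tight and far apart. Its log2 difference was -1.77 (SE 0.38, limma adjusted p = 0.399), and its WT 2-cell values were 31.5 and 63.4 FPKM. The m-z- embryos with and without Y-linked RNA lay within 11.5 to 12.7 FPKM. Gm2223, an X-linked processed copy identical to Eif2s3x over its 1350 bases, was at 13.6, 17.7 and 12.6 FPKM against 2.47, 4.51 and 2.04 FPKM, and its reads cannot be told from those of Eif2s3x. With Y-linked RNA as a covariate in the 14 2-cell libraries, an alternative added after seeing the data, 2 genes were called, Dppa4 and Gm14058.

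Beyond these, some genes had separated groups and the smallest unadjusted p among genes with a mean of at least 5 FPKM in a group, and did not pass. Among those with lower m-z- values, Hira, for a chaperone of the histone H3.3, was at 10.3, 6.85 and 11.4 FPKM in m-z+ and 0.455, 1.35 and 1.66 FPKM in m-z- embryos (log2 difference -2.31, SE 0.52, limma adjusted p = 0.437). WT 2-cell embryos held 15.1 and 3.72 FPKM of it. Cbx5, for the heterochromatin protein HP1 alpha, was at 69.3, 103 and 17.8 FPKM against 13.3, 6.26 and 10.6 FPKM (-2.28, SE 0.53, limma adjusted p = 0.437). It passed without m-z+ replicate 3, the lowest of that group (-3.01, limma adjusted p = 0.0328). WT 2-cell embryos held 28.6 and 17.5 FPKM of Cbx5 and Dppa2-arm embryos 12.3 to 34.4 FPKM. The m-z+ replicate 3 lay within both ranges, and m-z+ replicates 1 and 2 lay above them. Txnl4a, for a part of the U5 spliceosome particle, was at 21.5, 30.5 and 23.0 FPKM against 9.47, 7.93 and 8.02 FPKM.

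Among those with higher m-z- values, Rgsl1 was at 0, 0 and 0.293 FPKM in m-z+ and 6.38, 5.71 and 3.49 FPKM in m-z- embryos (log2 difference 2.48, SE 0.45, limma adjusted p = 0.134). Meig1, known for its part in sperm formation, was listed at 0 in all m-z+ embryos and at 4.07, 21.4 and 6.31 FPKM in m-z- embryos. Ndufa8, for a subunit of respiratory complex I, was at 0.930, 2.64 and 2.05 FPKM against 20.1, 8.84 and 5.46 FPKM. The WT 2-cell embryos stood at 0 to 1.35 FPKM for Rgsl1, 0 to 1.32 FPKM for Meig1 and 1.10 to 2.00 FPKM for Ndufa8, nearer to the m-z+ embryos. Gm9376 was at 0.532, 0.182 and 0.221 FPKM against 3.33, 8.89 and 5.98 FPKM. Its WT 2-cell values, 4.72 and 4.96 FPKM, lay within the m-z- range and above every m-z+ embryo. Gm16283, Gm9376, Gm23451 and E130307A14Rik, the rest of this group, had log2 differences of 3.53, 2.36, 2.17 and 2.43 with limma adjusted p from 0.337 to 0.419. WT 2-cell embryos held 11.9 and 15.4 FPKM of Gm16283, 0.547 and 0.333 FPKM of Gm23451 and 0.479 and 0.915 FPKM of E130307A14Rik. E130307A14Rik is annotated as antisense, and the libraries are not stranded. Gm23451 passed without m-z- replicate 1 (2.82, limma adjusted p = 0.0103).

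**Figure D5:**
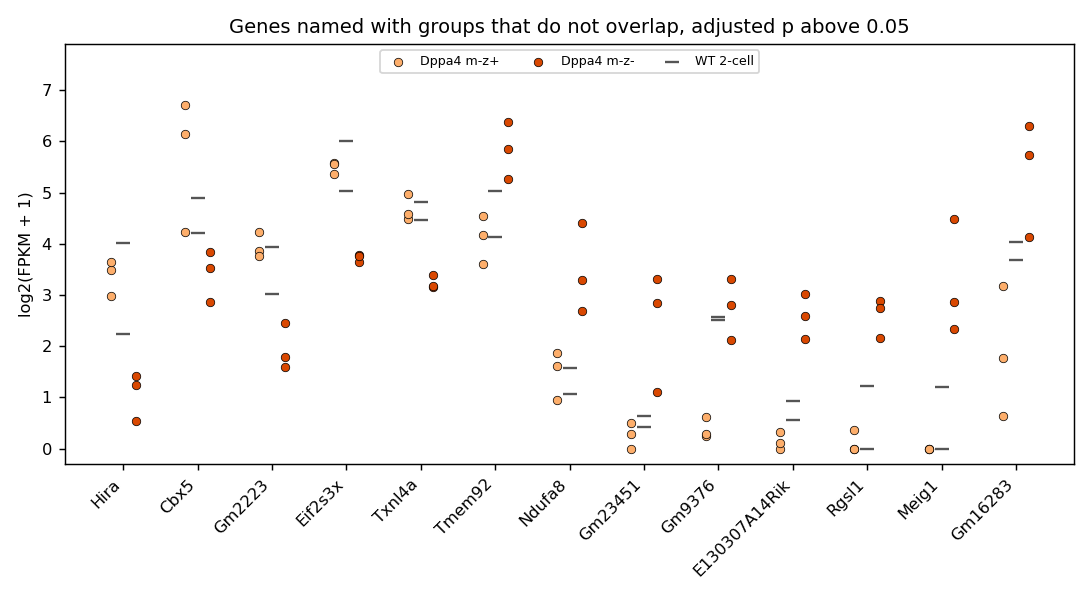
Log2(FPKM + 1) of the 13 named genes that did not pass, with dots for single Dppa4 m-z+ and m-z- embryos and dashes for the 2 WT 2-cell embryos, ordered by log2 difference. Each gene has separated groups, as the rule that named them required.

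Whether a gene's difference was particular to Dppa4 was tested against the same contrast in the Dppa2 arm, whose embryos have a mixed B6/DBA background, so strain and gene cannot be told apart. Dppa2 itself stood at 155, 130 and 76.5 FPKM in libraries labelled Dppa2 m-z- beside 92.4, 87.3 and 63.2 FPKM in Dppa2 m-z+ libraries, so that label was not visible in the RNA, and each difference between the arms rests on it. In this test 3 of 18506 genes passed (0.0162%), and 1896 (10.2%) had an unadjusted p under 0.05. Dppa4 differed by -7.36 (SE 0.43, limma adjusted p = 5.21e-08) and Gm14058 by -4.16 (SE 0.54, limma adjusted p = 0.00385). In the Dppa2 arm itself 1 gene (0.0054%) was called, Gm16027, named after its values were seen. For Dppa2, AF067061, Tmem92 and Gm6773 the difference between the arms did not pass (limma adjusted p = 0.31, 0.228, 0.228 and 0.258).

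The third gene was Gm4707 (ENSMUSG00000091831, chromosome 17, 71458327 to 71459918, reverse strand), annotated as protein coding and similar to Atp5b, the gene of an ATP synthase subunit, at 90.9% identity over 716 bases. In the Dppa4 arm it was at 0.167, 0.102 and 0.228 FPKM with m-z+ and 5.08, 3.84 and 3.99 FPKM with m-z- genotype, and in the Dppa2 arm at 3.28, 5.1 and 3.59 FPKM with m-z+ and 0.132, 0.130 and 0.254 FPKM in libraries labelled Dppa2 m-z-. The groups were separated in opposite directions in the 2 arms. The log2 difference was 2.18 in the Dppa4 arm (limma adjusted p = 0.134) and -2.08 in the Dppa2 arm (limma adjusted p = 0.185), and that between the arms 4.25 (SE 0.56, limma adjusted p = 0.00385). WT 2-cell embryos held 0.119 and 0.940 FPKM. Atp5b overlapped between the Dppa4 genotypes, at 162, 190 and 158 FPKM against 179, 160 and 247 FPKM.

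Markers of other cells were few. Of 16 cumulus and granulosa cell genes 3 were tested, of 15 sperm genes 8 and of 14 blood genes 5, with 0 called. The summed level of the tested cumulus genes was 14.4 to 21.8 FPKM in m-z+ and 12.3 to 27.8 FPKM in m-z- embryos, that of the tested blood genes 55.1 to 111 and 16.8 to 96.6 FPKM, and that of the tested sperm genes 59.7 to 69.6 and 53.3 to 88.8 FPKM, all overlapping. The mitochondrially encoded genes had a median log2 difference of 0.15, which was -0.11 without m-z+ replicate 1 and -0.09 without m-z- replicate 1, and their sum ranged from 46994 to 84025 FPKM in m-z+ and from 50573 to 93079 FPKM in m-z- embryos.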

How the data were processed

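Values are FPKM that the authors made with HISAT2 2.1.0 and StringTie 1.3.3b on mm10, per the submitters' processing notes, and the gene annotation they used is not given in the sources used here. Per the labels' protocols, cDNA came from an ultra-low-input polyA kit and libraries from Nextera XT. A gene was tested if 2 or more of the 16 polyA libraries reached 1 FPKM (18506 of 46078). limma 3.58.1 (R 4.3.3, statmod 1.5.0) was fitted to log2(FPKM + 1) with 1 mean per group over all 16 libraries and trended, robust moderation, two-sided, with Benjamini-Hochberg adjustment. The fit was tested on simulated data. Embryos are the replicates. Where embryos share a mother, which the labels do not say, p-values measure only the spread between these embryos.

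The named genes were Dppa4, Dppa2, the called genes, those filling the list to 8 per direction by smallest unadjusted p with at least 5 FPKM in a group and no overlap, up to 4 per gene list by size of difference, and fixed examples. The members and lists were chosen with earlier results of these data known. Near-identical copies were aligned with BLAST 2.17.0 to GENCODE M21, which also gave positions. Without read counts, depth and counting error are unknown. Alternatives were the pseudocount, filters, scalings, libraries fitted, moderation, single libraries left out, a replicate block and a Y-linked RNA covariate.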

Additional observations from a re-analysis of the deposited data

Results flagged for a closer look

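The difference between the Dppa4 and Dppa2 arms was flagged in 3 genes because the 2 contrasts differed by a test of the difference itself: Dppa4 (-7.36 log2), Gm14058 (-4.16 log2) and Gm4707 (4.25 log2). Dppa4 is the mutated gene of its arm and Gm14058 its near-identical copy. Gm4707 was low in Dppa4 m-z+ and in libraries labelled Dppa2 m-z-, and high in the other 2 groups. The strain background differs between the arms and cannot be told apart from the mutated gene. Groups of 3 embryos were too small for the test of single outlying samples.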

How the results depend on the processing

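Dppa4 was called under every alternative run. The count of called genes, 3, was 5 with no filter on low values, 5 without trended and robust moderation, 1 when only the compared libraries were fitted, 1 with a replicate block, and 2 to 5 when single libraries were left out (5 without m-z- replicate 3). For the difference between the arms, also 3, it was 7 with no filter, 1 with a replicate block and 3 to 11 with single libraries left out (11 without Dppa4 m-z- replicate 3, 7 without Dppa2 m-z+ replicate 1, 5 without Dppa4 m-z+ replicate 2). Deviations from the group means had r = -0.183, -0.029 and -0.103 for same-numbered embryos and -0.107 to 0.183 for other pairs. Taken from means of 3 embryos, these values cannot show whether same-numbered embryos shared a mother or a batch. Gm14058 lost its call in the fit of the 6 libraries (limma adjusted p = 0.0642) and with the replicate block (0.938) and Gm6773 lost it under those (0.87 and 0.938), a pseudocount of 0.1 (0.0691) and the Y-linked covariate (0.0986). Single libraries moved the medians of 2-cell genes from 0.053 to 0.612, maternal transcripts from 0.099 to 0.236, preimplantation factors from -0.065 to 0.391, heat shock genes from -0.345 to -0.045 and imprinted genes from -0.151 to 0.037. With Y-linked RNA as a covariate the maternal median was 0.206. The cause was not tested. No called gene changed direction under the alternatives run, but several list medians, which carry no test, changed sign. Single libraries moved those of target genes from -0.149 to 0.273, germ-line genes from -0.088 to 0.132, DNA methylation and chromatin genes from -0.188 to 0.304 and mitochondrially encoded genes from -0.105 to 0.374. With at least 5 FPKM in 3 libraries, the medians of preimplantation factors, germ-line genes and sperm genes were -0.015, 0.007 and -0.247, and with the Y-linked covariate that of Y-linked genes was -0.112. With 3 embryos a group and no read counts, small differences were not detectable, and large ones could also fail to pass. Gm16283, for example, had a log2 difference of 3.53 (limma adjusted p = 0.419).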

Other observations

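Levels on the X chromosome differed from embryo to embryo. The median of the 825 tested X-linked genes was 1.61, 2.31 and 2.17 log2 units in m-z+ and 2.21, 1.75 and 1.66 in m-z- embryos, lowest in the 3 embryos with Y-linked RNA. Xist, the RNA that silences an X chromosome, was at 0, 1.54 and 2.91 FPKM in m-z+ and 0.488, 0.000299 and 0 FPKM in m-z- embryos, so the 3 embryos without Y-linked RNA were the 3 highest.

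Across 18506 genes the log2 differences of the Dppa4 and Dppa2 arms had a Pearson's r of -0.163. Genes are not independent replicates, and the value is given as a description.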
